A study of Rattus norvegicus with 4 samples.

Results

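The insulin-like growth factor (IGF) family was followed through rat trigeminal nerve tissue with 9 genes, namely the ligands Igf1 and Igf2, the receptor Igf1r and the binding proteins Igfbp2, Igfbp3, Igfbp4, Igfbp5, Igfbp6 and Igfbp7. They were taken by gene symbol from the 32623 genes of the deposited table, in which each symbol occurred once. The tissue came from adult male Sprague-Dawley rats labelled as wild type. In the trigeminal neuralgia (TN) group the trigeminal root had been compressed on one side, and the root, semilunar ganglion and proximal branches of that side filled 3 Visium capture areas (TN1, TN2 and TN3) with tissue of 1 animal each. A 4th area, the healthy control (HC), held healthy-side tissue of 2 animals that the barcodes do not separate, and these animals were 2 of the 3 TN animals by the series description, whereas the methods describe sham-operated controls. HC was therefore 1 sample with no spread of its own, and condition cannot be told apart from capture area.

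IGF1 and IGF2 are secreted growth factors that signal mainly through the IGF1 receptor, a receptor tyrosine kinase upstream of PI3 kinase, Akt and the MAP kinases. IGF-binding proteins hold the ligands in fluids and matrix, where they can limit, store or deliver them, and proteases such as pappalysins release the ligand again. IGFBP7 binds IGFs only weakly and is best known from vessels and matrix. In nerve tissue IGFs are known for supporting neuron survival, axon growth and myelination.

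Messenger RNA was counted as unique molecular identifiers (UMIs), each standing for 1 captured molecule, in 6773 tissue-covered spots. TN1, TN2, TN3 and HC had 1587, 1256, 1917 and 2013 spots, and their medians ran from 9487 to 30808 UMIs per spot. A spot holds several cells. Spots were grouped into regions by clustering without the 9 genes, and regions were named by marker lists. The ganglion region (clusters 1 and 6, sensory neuron markers) and the central myelin region (clusters 4 and 8) reached 20 spots in all 4 areas. The peripheral myelin and the blood and bone regions reached it in TN1, TN3 and HC, the central neuron region in TN1 and TN2, and the astrocyte region, the connective tissue region and the unnamed cluster 3 in TN2 and TN3 alone. Cluster 3 scored 1.42 for connective tissue and 1.19 for peripheral myelin, too close for a name. In the ganglion region, HC lay almost wholly in cluster 1 (948 of 950 spots), and TN2 mostly in cluster 6 (372 of 414), whose leading genes were Csrp3, Gal and Reg3b and not sensory neuron markers. Sensory neuron markers summed to 12741 to 15547 CPM in the ganglion region against 1540 to 4356 CPM in central myelin, and central myelin markers to 2617 to 2721 CPM in central myelin against 81.1 to 215 CPM in the ganglion. CPM is the number of UMIs of a gene per 1000000 UMIs of a region in an area. Of the 3573 barcode sequences 2337 occurred in more than 1 area, since slides share a layout.

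Every binding protein but Igfbp3 gave more UMIs than either ligand. Igfbp7 gave 105452 UMIs and was seen in 88.6% of spots, Igfbp5 gave 41569 UMIs in 78.6%, Igfbp6 24149 in 70.0%, Igfbp4 20205 in 63.1% and Igfbp2 14849 in 63.4%. Igfbp3 was the scarcest binding protein, with 2030 UMIs in 20.2% of spots. Igf2 had 7636 UMIs in 41.4% of spots and Igf1 2555 UMIs in 25.1%. Igf1r had 170 UMIs in 2.33% of spots, between 30 and 69 per area, so that its pattern rests on few molecules. The library reads the 3' end of transcripts, and these counts were not divided by transcript length.

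Among the ligands, Igf2 had its lowest mean in the ganglion (20.2 ± 11.8 CPM, SD, n = 4 areas). Peripheral myelin was above the ganglion in TN1 (66.8 CPM) and TN3 (72.4 CPM) and level with it in HC (10.99 CPM). The Igf2 level in the ganglion was 13.5, 37.2 and 19.0 CPM in TN1, TN2 and TN3 and 11.03 CPM in HC. In central myelin it was 63.4, 163 and 101 CPM in TN1, TN2 and TN3 and 52.7 CPM in HC, above the ganglion in each of the 4 areas. The highest mean levels were those of connective tissue (182 ± 113 CPM, SD, n = 2 areas), the astrocyte region (165 ± 43.0, n = 2) and blood and bone (124 ± 95.04, n = 3). The ranges of these neighbours overlapped, and their order depended on the clustering. Blood and bone led with 8 clusters (176 CPM beside 124 CPM in connective tissue). The astrocyte region led with 12 clusters (161 beside 143 CPM) and with log-normalised counts (191 beside 131 CPM). TN1 had 3 connective tissue spots, which carried 9.52% of its Igf2 UMIs with 0.278% of all its UMIs. The most Igf2 in any spot was 104 UMIs. In such sums, more cells of a type and more RNA per cell cannot be told apart.

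For Igf1, the astrocyte region (34.9 ± 1.83 CPM, n = 2), connective tissue (34.4 ± 6.71, n = 2) and cluster 3 (28.8 ± 2.14, n = 2) led. The ganglion (15.4 ± 6.46, n = 4) and central myelin (15.3 ± 14.3, n = 4) had lower means, although in TN2 central myelin (36.4 CPM) stood level with the astrocyte region (36.1 CPM). The Igf1 order depended on the clustering: with 8 clusters blood and bone had the highest mean (37.4 CPM in place of 20.2), and central myelin had 8.55 CPM with 8 clusters and 5.12 CPM with log-normalised counts. The central neuron region stood lowest with 3.61 ± 1.28 CPM (n = 2), below every other region in each area that held both. The receptor Igf1r had mean levels of 0.419 to 2.13 CPM over the 8 regions, and its few UMIs set no order among them.

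The connective tissue region, found in TN2 and TN3, held the highest mean level of Igfbp3, Igfbp4, Igfbp5, Igfbp6 and Igfbp7. For these 5 genes both of its areas lay above both areas of cluster 3, the next in order. The share of all genes with this pattern was not computed, so it is not known to be particular to the family. Igfbp7 reached 2768 and 4142 CPM there in TN2 and TN3, against 853 and 700 CPM in the ganglion and 408 and 436 CPM in central myelin of the same areas. Igfbp5, a binding protein of matrix and bone, reached 1564 and 1078 CPM there, against 365 and 190 CPM in the ganglion. Igfbp4 stood at 379 and 605 CPM, against 195 and 135 CPM in the ganglion. Igfbp6, which prefers IGF2 over IGF1, stood at 366 and 678 CPM, against 158 and 132 CPM in the ganglion. Igfbp3, the main carrier of IGFs in serum, stood at 43.7 and 70.7 CPM, against 14.1 and 16.2 CPM. With 8 clusters the connective tissue region had 809 spots in place of 166, with log-normalised counts before clustering 793. In these and with 12 clusters, Igfbp3 fell there to 34.2 to 36.9 CPM on average, Igfbp4 to 298 to 313, Igfbp5 to 667 to 782 and Igfbp7 to 2089 to 2353. All 4 genes still had their highest mean there. With 8 clusters, however, Igfbp5 reached 1213 CPM in an area of blood and bone, beside 421 and 913 CPM in connective tissue. Igfbp6 in connective tissue (343 and 424 CPM) then overlapped with peripheral myelin (up to 433 CPM). Igfbp4 did so too (236 and 360 CPM beside up to 240 CPM). With 12 clusters Igfbp4 (from 250 CPM) and Igfbp6 (from 366 CPM) overlapped with peripheral myelin (up to 295 and 441 CPM). Igfbp5 (from 436 CPM) then overlapped with blood and bone (up to 691 CPM).

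Igfbp2 departed from the order of these 5 genes. It was highest in the astrocyte region, with 272 CPM in TN2 and 458 CPM in TN3, above the highest other area (244 CPM, blood and bone of TN1). That region also held 3141 and 4302 CPM of macrophage and microglia markers in TN2 and TN3, beside 11080 and 11611 CPM of astrocyte markers. With 8 clusters the astrocyte region kept the highest mean but overlapped with blood and bone, at 257 and 426 CPM beside a maximum of 297 CPM, and with the mean of CPM per spot they overlapped too (182 CPM beside 207 CPM). The lowest mean of Igfbp2 was that of peripheral myelin with 63.1 ± 17.1 CPM (n = 3). Within areas, cluster 3 was lower in TN3 (77.1 beside 82.7 CPM) and central myelin in HC (47.2 beside 51.3 CPM). With log-normalised counts central myelin had the lowest mean (60.9 CPM beside 69.8 CPM in peripheral myelin). In TN3 the astrocyte region carried 28.9% of all Igfbp2 UMIs with 7.40% of the area's UMIs. Igfbp6 had another high place in peripheral myelin, with 432 CPM in TN1, 221 in TN3 and 221 in HC, above the ganglion in each of these areas. Igfbp5 stood at 677 CPM in blood and bone of HC, against 143 CPM in TN1 and 194 CPM in TN3.

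**Figure D1:**
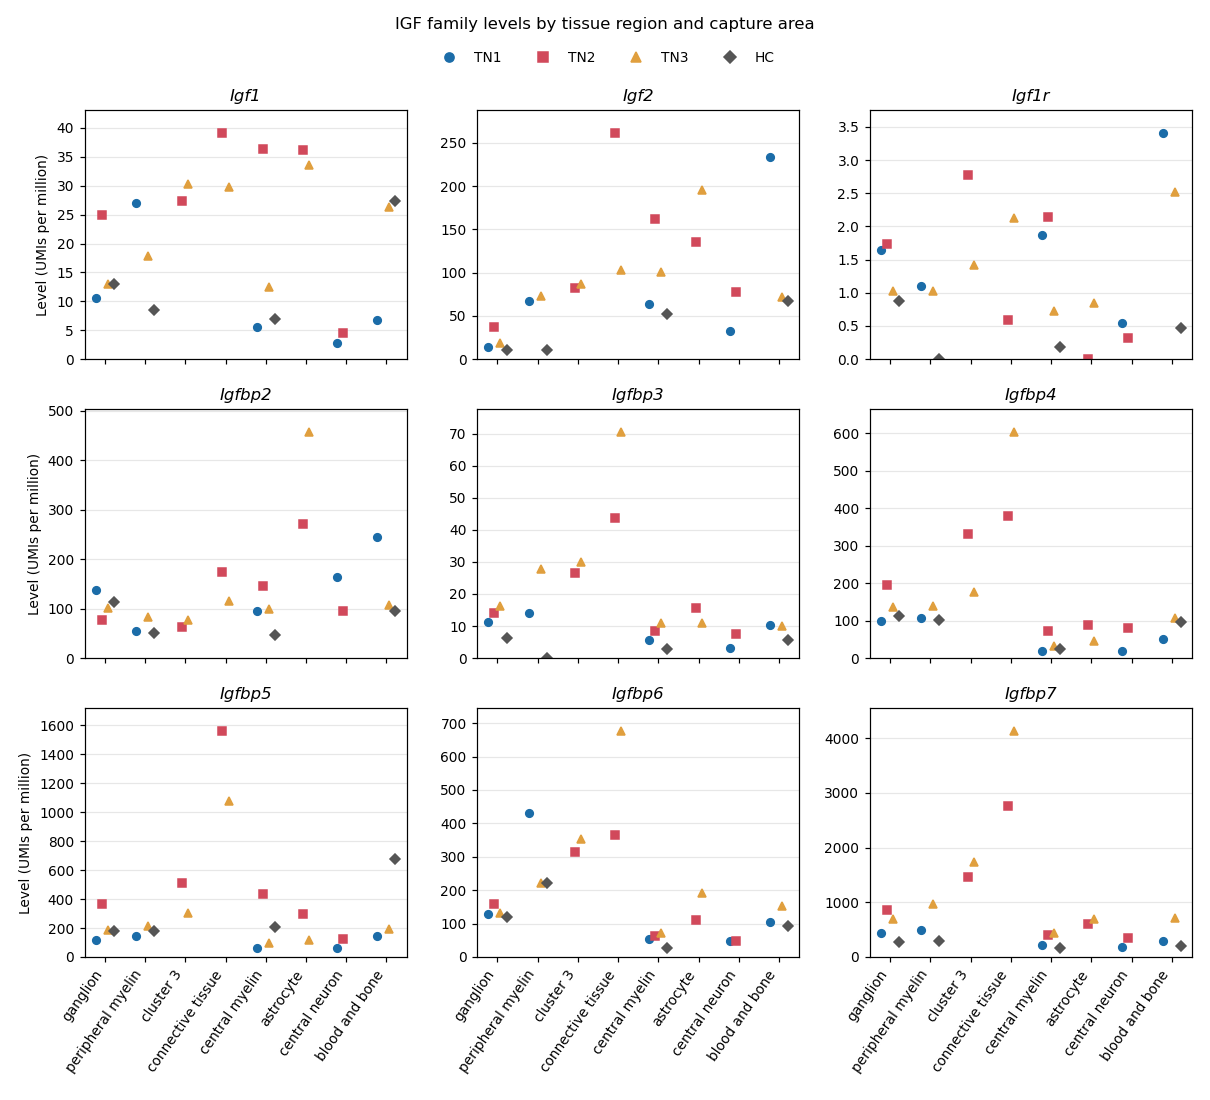
Level of each gene (y axis, CPM within a region, linear and different for each panel) in 8 regions (x axis), with 1 point per capture area that held at least 20 spots of the region. Igfbp3 to Igfbp7 peak in connective tissue, Igfbp2 in the astrocyte region (272 and 458 CPM), and Igf2 is low in the ganglion (11.03 to 37.2 CPM).

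Across the 22 sums of a region in an area, levels of Igfbp6, Igfbp4, Igfbp7, Igf1, Igfbp5 and Igfbp3 followed the summed connective tissue markers with Pearson r of 0.89, 0.87, 0.85, 0.80, 0.78 and 0.77 on the log2(CPM + 5) scale. Other lists came close for some of them: r was 0.82, 0.79 and 0.76 with the endothelium and mural markers and 0.77, 0.50 and 0.76 with the macrophage and microglia markers for Igfbp7, Igfbp6 and Igfbp3, and 0.72 with the peripheral myelin markers for Igfbp6. For Igf2, r was 0.36 with connective tissue, 0.68 with macrophage and microglia and -0.74 with the sensory neuron markers. For Igfbp2 the r with connective tissue was -0.04 and with the astrocyte markers 0.42. For Igf1 it was 0.71 with macrophage and microglia and 0.004 with the astrocyte markers. These sums share areas and depth, so r is a description without a test. Among the members, Igfbp3 and Igfbp7 were the most alike pair (0.93), followed by Igfbp4 with Igfbp7 (0.84), Igfbp6 with Igfbp7 (0.82) and Igfbp4 with Igfbp6 (0.82), while Igfbp2 ran from -0.15 with Igfbp4 to 0.48 with Igf2. By the same measure, over 7875 genes, the 3 genes most like Igfbp6 were Dcn, Col4a1 and Ahnak (0.944 to 0.959), where Dcn encodes the matrix proteoglycan decorin and Col4a1 a basement membrane collagen. Igfbp4 was nearest to Plac9, Fbn1 and Rhoj (0.924 to 0.945), of which Fbn1 encodes fibrillin. Igfbp5 was nearest to Lox, which encodes the collagen cross-linking enzyme lysyl oxidase, Smoc2, itself a leading gene of the connective tissue cluster, and RGD1310587 (0.881 to 0.924). Igfbp7 was nearest to Ifitm1, Crabp2 and Irf1 (0.966 to 0.973), and Igfbp3 to Lrrc71, Zfp746 and Lyz2 (0.916 to 0.928). Igf1 was nearest to Cybb, a subunit of the phagocyte oxidase, Anxa1 and Hps1 (0.862 to 0.877). Igf2 was nearest to Srgn, Klf3 and Ptgds (0.883 to 0.892), of which Ptgds encodes a prostaglandin D synthase. Values were lower for Igfbp2 (Klhl13, Fam49a and Casc4, 0.708 to 0.770) and Igf1r (Rgs5, Cdc42 and Nup188, 0.617 to 0.640). On the log2(CPM + 1) scale the 3 nearest genes were not all the same for Igf1, Igf2, Igfbp3, Igfbp6 and Igfbp7. Igfbp3 was then nearest to Cnot1, Clec10a and Lrrc71.

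To ask which family members separate the ganglion from central myelin, the ganglion and central myelin sums of the same area were compared in all 4 areas with edgeR and the area as a block. After TMM normalization, which scales libraries to a common composition, Igf2 was 12.5, 34.0, 17.5 and 10.96 CPM in the ganglion of TN1, TN2, TN3 and HC, and 66.0, 169, 109 and 59.3 CPM in central myelin. It was lower in the ganglion in 4 of 4 areas, by 4.96 to 6.23 times. Igfbp4 was 92.0, 178, 124 and 112 CPM in the ganglion and 18.5, 75.4, 34.4 and 28.4 CPM in central myelin. Igfbp6 was 120, 145, 122 and 119 CPM in the ganglion and 56.8, 66.5, 76.7 and 30.9 CPM in central myelin. Both were higher in the ganglion in 4 of 4 areas, and the groups did not overlap. How many of all genes had groups without overlap was not computed. Igfbp7 was 403, 779, 642 and 281 CPM in the ganglion and 237, 423, 468 and 181 CPM in central myelin, higher in 4 of 4 areas although the groups overlapped between areas.

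On the log2 scale, with standard errors, Igf2 was lower in the ganglion by a difference of -2.44 ± 0.11 (adjusted p = 8.73e-08, edgeR quasi-likelihood test with Benjamini-Hochberg adjustment). Higher in the ganglion were Igfbp4 with 1.82 ± 0.16 (adjusted p = 6.66e-06, edgeR), Igfbp6 with 1.22 ± 0.18 (adjusted p = 0.000219, edgeR) and Igfbp7 with 0.68 ± 0.11 (adjusted p = 0.000525, edgeR). Igfbp3 was higher in 4 of 4 areas by 0.69 ± 0.21 (adjusted p = 0.0188, edgeR). This call was lost without TN1 (adjusted p = 0.0563, edgeR), without HC (0.0788) and with cluster 1 alone as the ganglion (0.105). The central myelin sums of Igfbp3 held 12, 12, 15 and 15 UMIs in TN1, TN2, TN3 and HC. Igf1, Igf1r, Igfbp2 and Igfbp5 did not pass, with differences of 0.09 ± 0.25, 0.22 ± 0.56, 0.05 ± 0.27 and 0.14 ± 0.21. Igf1 and Igfbp5 passed with 8 clusters (0.77 and 0.51 on the log2 scale) and with log-normalised counts (1.18 and 0.41), and Igfbp2 with the latter (0.90). Thus 5 of 9 members were called, 4 higher and 1 lower. Of all 12467 genes tested, 26.3% were called higher in the ganglion and 25.5% lower, and the regions were themselves drawn from those genes other than the members and their pathway. Being higher or lower in all 4 areas was true of 31.9% and 29.4% of genes. Connective tissue markers summed to 1251 to 3417 CPM in the ganglion and 528 to 3556 CPM in central myelin, higher in the ganglion of TN1, TN3 and HC. Peripheral myelin markers summed to 13938, 17359, 21066 and 21395 CPM in the ganglion of TN1, TN2, TN3 and HC and 5772, 4272, 7195 and 4543 CPM in central myelin, higher in the ganglion of all 4 areas. The part of either list in these differences was not tested.

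**Figure D2:**
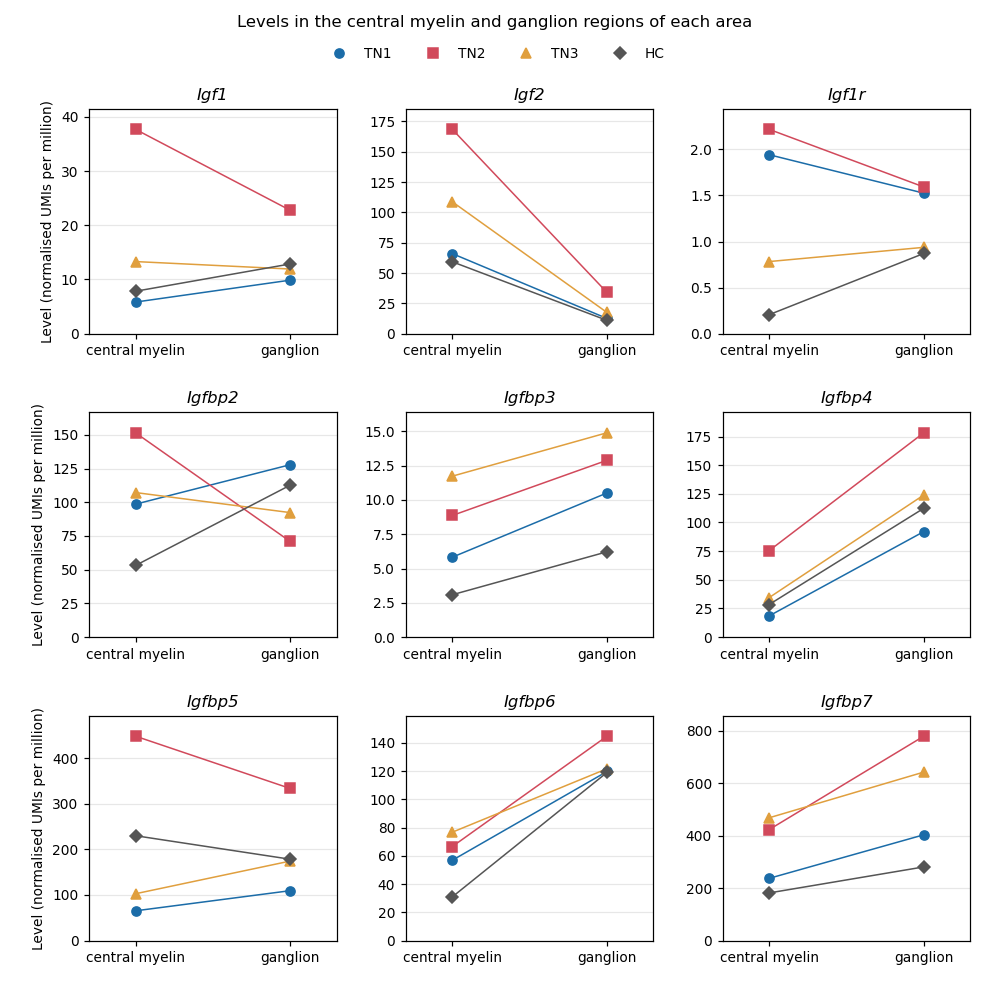
TMM-normalised level of each gene (y axis, CPM, linear and different for each panel) in the central myelin and the ganglion region, with lines joining the 2 regions of the same capture area. All 4 lines fall for Igf2 and rise for Igfbp3, Igfbp4, Igfbp6 and Igfbp7, while those of Igf1, Igf1r, Igfbp2 and Igfbp5 run in both directions.

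The bases before the start of the 3 genes with the largest of these differences are shown as the reference sequence at genes that moved in opposite directions. They are the 250 bases upstream of each RefSeq start in the GRCr8 assembly, 5' to 3' on the strand of the gene, with matches of TATAAA or GGGCGG on either strand in capitals. Igf2 has 2 starts in this table, and the counts do not tell which was used.
Igf2 start 1, chr1:207250476-207250725, minus strand: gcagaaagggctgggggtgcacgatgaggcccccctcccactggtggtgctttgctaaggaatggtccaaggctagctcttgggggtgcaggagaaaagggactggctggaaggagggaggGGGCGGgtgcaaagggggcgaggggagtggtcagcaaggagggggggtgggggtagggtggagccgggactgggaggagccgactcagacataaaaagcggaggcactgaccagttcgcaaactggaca
Igf2 start 2, chr1:207253981-207254230, minus strand: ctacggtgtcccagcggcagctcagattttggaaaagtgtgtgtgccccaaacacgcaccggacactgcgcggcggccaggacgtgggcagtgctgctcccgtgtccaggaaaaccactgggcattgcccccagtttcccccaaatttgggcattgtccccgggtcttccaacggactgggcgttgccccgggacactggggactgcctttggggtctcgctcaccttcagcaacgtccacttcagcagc
Igfbp4, chr10:84491221-84491470, plus strand: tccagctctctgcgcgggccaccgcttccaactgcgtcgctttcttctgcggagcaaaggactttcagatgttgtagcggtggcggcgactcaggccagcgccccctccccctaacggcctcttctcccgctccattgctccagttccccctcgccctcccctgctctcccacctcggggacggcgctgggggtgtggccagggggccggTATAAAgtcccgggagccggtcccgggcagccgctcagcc
Igfbp6, chr7:135154669-135154918, plus strand: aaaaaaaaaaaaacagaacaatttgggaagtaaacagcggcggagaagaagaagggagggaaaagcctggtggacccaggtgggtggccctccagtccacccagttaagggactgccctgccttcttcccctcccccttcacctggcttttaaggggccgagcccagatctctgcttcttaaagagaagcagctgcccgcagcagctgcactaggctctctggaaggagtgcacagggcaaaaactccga
GGGCGG occurs in the window of Igf2 start 1 and TATAAA in that of Igfbp4, and neither occurs in the other 2 windows. All 9 members matched the table, with 10 windows. GGGCGG was found in 4 of them and TATAAA in 1, against 30.5% and 12.9% of 33469 windows of the same length.

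A list of 23 further genes of the pathway (receptors, proteases, adaptors and kinases) was read in the same fit. Of these, 15 were abundant enough to test. In the ganglion 6 were called higher and 1 lower, where 26.3% and 25.5% of all 12467 genes were. The protease Pappa2, which cleaves IGFBP3 and IGFBP5, was 6.58, 8.12, 7.24 and 1.87 CPM in the ganglion of TN1, TN2, TN3 and HC, and 0.486, 2.96, 0 and 0.618 CPM in central myelin (adjusted p = 0.00216, edgeR). Its level in the ganglion was higher in each TN area than in HC. Insrr, an orphan relative of the insulin receptor, was 7.06, 5.78, 6.47 and 10.3 CPM in the ganglion and 2.22 to 3.91 CPM in central myelin. The adaptor Shc1, the kinase subunit Pik3ca and the protease Htra1 were higher by 0.71, 0.48 and 0.50 on the log2 scale. Stc1, a pappalysin inhibitor, was called at 0.511 to 1.71 CPM in the ganglion with 3 of 4 central myelin sums at 0. Irs2, an adaptor of the insulin and IGF1 receptors, was lower by a log2 difference of -0.81 ± 0.12. The mannose 6-phosphate receptor Igf2r, which clears IGF2, did not pass (-0.29 ± 0.13).

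TN and HC were then compared, with each TN area set against HC over all spots and TMM-normalised levels. The areas also differed in tissue, since HC held no spots of the connective tissue region, cluster 3 or the central neuron region. Igfbp7 was 363, 1162 and 1229 CPM in TN1, TN2 and TN3 and 269 CPM in HC. Igfbp3 was 9.13, 19.9 and 24.3 CPM in the TN areas and 5.86 CPM in HC. Igf2 was 39.7, 86.6 and 71.4 CPM against 23.2 CPM. TN2 and TN3 stood well above HC for these 3 genes, and TN1 closer to it. Igfbp6 was 148, 207 and 246 CPM against 111 CPM. For Igf1r, too, all 3 TN areas lay above HC (1.35, 1.72 and 1.22 against 0.757 CPM). Igf1, Igfbp4 and Igfbp5 were below HC in TN1 and above it in TN2 and TN3. Igfbp2 was 133, 92.6 and 118 CPM against 106 CPM, with TN2 below HC. The share of spots with a UMI told the same of Igfbp7 and Igf2: at 2000 UMIs a spot, Igfbp7 was found in 43.5%, 76.8% and 77.8% of TN spots and 35.2% of HC spots (95% exact interval 33.1% to 37.4%), and Igf2 in 7.03%, 14.4% and 12.9% against 5.84% (4.85% to 6.96%). Igfbp3 (1.52%, 3.23% and 3.83% against 0.848%) and Igfbp6 (25.4%, 28.4% and 32.3% against 16.8%) were in the same order of TN above HC, whereas Igfbp5 was found in 15.7% of TN1 spots, 51.1% of TN2, 31.4% of TN3 and 39.5% of HC. Without thinning these were 83.1%, 97.8%, 91.5% and 84.4% for Igfbp7 and 26.8%, 68.9%, 49.1% and 28.4% for Igf2. At 2000 UMIs a spot, the Igf2 interval of TN1 (5.82% to 8.41%) overlapped that of HC. So did the Igfbp3 interval of TN1 (0.977% to 2.25%, beside 0.495% to 1.35% in HC). The intervals cover counting error only.

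None of the 9 members passed edgeR's adjusted threshold over all spots. Of the 14902 genes tested 0% passed it, with 1271 genes at an unadjusted p under 0.05 and 144 called by DESeq2. The log2 differences were 1.77 ± 0.79 for Igfbp7 (adjusted p = 0.557, edgeR), 1.60 ± 0.63 for Igfbp3 (0.556), 1.51 ± 0.50 for Igf2 (0.556) and 0.85 ± 0.36 for Igfbp6 (0.556). All 9 estimates were above 0, with a median of 0.85 beside 0.06 over all genes. All 3 TN areas lay above HC for 5 members, a pattern found in 28.7% of genes. Without TN1, edgeR called Igfbp7, Igf2, Igfbp3 and Igfbp6 (adjusted p 0.0130 to 0.0365), when 8.07% of genes were called higher in TN. The connective tissue markers summed to 1974, 5777 and 5583 CPM in TN1, TN2 and TN3 and 1450 CPM in HC, the macrophage and microglia markers to 680, 1912 and 2296 against 372 CPM, and the endothelium and mural markers to 227, 302 and 305 against 198 CPM. Without the connective tissue region and cluster 3 the differences were 1.20 for Igfbp7, 1.13 for Igf2 and -0.24 for Igfbp5, against 0.29 for Igfbp5 with them.

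In the ganglion region Igfbp7 was 430, 833 and 698 CPM in TN1, TN2 and TN3 and 293 CPM in HC. Igfbp3 was 11.2, 13.8 and 16.2 CPM against 6.49 CPM. Every TN area was above HC for both, as for Igf2 (13.4, 36.3 and 19.0 against 11.4 CPM), Igf1r and Igfbp6. Igfbp6 moved little (128, 155 and 132 against 124 CPM), and Igfbp2 was above HC in TN1 alone. Igf1 (10.5, 24.4 and 13.0 against 13.4 CPM) and Igfbp4 (98.2, 191 and 135 against 117 CPM) lay on both sides of HC. So did Igfbp5 (117, 357 and 189 against 186 CPM). For Igf1, Igfbp4 and Igfbp5 the log2 differences were 0.26 ± 0.49, 0.27 ± 0.37 and 0.25 ± 0.58. The log2 differences were 1.16 ± 0.39 for Igfbp7 (adjusted p = 0.498, edgeR), 1.08 ± 0.31 for Igfbp3 (0.496) and 1.01 ± 0.57 for Igf2 (0.561), and none of the 9 passed. Nor did any of the 13051 genes tested (0%), with 1290 at an unadjusted p under 0.05 and 132 called by DESeq2. Being above HC in all 3 TN areas, as 5 members were, was true of 28.5% of genes. Without TN1, Igfbp7 and Igfbp3 were called (adjusted p = 0.00659 and 0.0348, edgeR), when 4.17% of genes were called higher. With cluster 1 alone as the ganglion, Igfbp7 differed by 0.83 and Igfbp3 by 0.88. The estimates of Igfbp4, Igfbp5 and Igfbp6 turned to -0.06, -0.01 and -0.19. Cluster 1 had 205, 42 and 134 spots in TN1, TN2 and TN3 and 948 in HC. Its composition was not matched: peripheral myelin markers summed to 10530, 8669 and 13894 CPM in the TN areas against 21387 CPM in HC. The macrophage and microglia markers of cluster 1 summed to 435, 668 and 645 against 245 CPM. In the whole ganglion region, connective tissue markers summed to 1251, 3417 and 3019 CPM in the TN areas and 1263 CPM in HC. The macrophage and microglia markers there summed to 592, 1412 and 863 against 245 CPM. The nerve injury markers, a list with Csrp3 and Gal that named no region, summed to 1432, 2722 and 1419 against 557 CPM. The part of these lists in the differences was not tested.

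Within the TN areas the 2 ganglion clusters differed. Igfbp7 was 540, 893 and 822 CPM in cluster 6 of TN1, TN2 and TN3, against 381, 610 and 582 CPM in cluster 1, a ratio of 1.41 to 1.46. Igfbp6 was 1.37 to 1.57 times, Igfbp4 1.23 to 1.57 times and Igfbp5 1.20 to 1.53 times as high in cluster 6. Igfbp2 went the other way in all 3 areas, at 107, 70.6 and 83.4 CPM against 153, 119 and 117 CPM. So 6 of 9 members were higher in cluster 6 in all 3 TN areas and 1 was lower, where 27.6% and 26.2% of genes were. The connective tissue markers were higher in cluster 6 too (1723, 3643 and 3855 against 1013, 2077 and 2212 CPM), as were the peripheral myelin markers (20708, 18825 and 28489 against 10530, 8669 and 13894 CPM), the macrophage and microglia markers (903, 1538 and 1089 against 435, 668 and 645 CPM) and the endothelium and mural markers (253, 252 and 274 against 177, 169 and 212 CPM). So were the nerve injury markers (2064, 2939 and 1829 against 1113, 1442 and 1023 CPM). Cluster 6 scored 1.727 for that list beside 1.29 for the sensory neuron list that gave its name. The part of these lists was not tested.

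**Figure D3:**
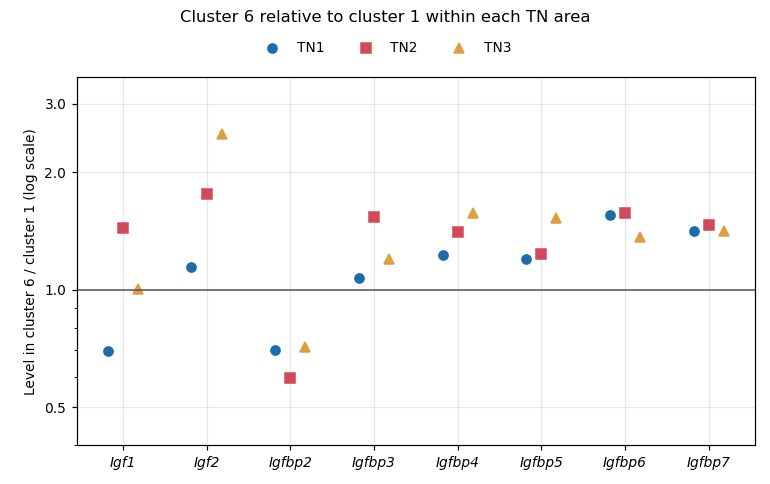
Level in cluster 6 divided by that in cluster 1 (y axis, log scale, 1 marks equal levels) for 8 genes in TN1, TN2 and TN3. Igfbp4 to Igfbp7, Igfbp3 and Igf2 lie above 1 and Igfbp2 below 1 in all 3 areas; Igf1r is left out for its few UMIs.

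In central myelin, Igfbp2 was 92.2, 142 and 103 CPM in TN1, TN2 and TN3 and 49.4 CPM in HC. Igfbp6 was 53.2, 62.4 and 73.8 CPM against 28.7 CPM. Igfbp7 was 222, 397 and 450 CPM against 169 CPM. All TN areas were above HC for these genes, and for Igf2 and Igfbp3. Igfbp3 rested here on few molecules, with 12, 12 and 15 UMIs in TN1, TN2 and TN3 and 15 in HC. Igfbp5 ran from 60.9 CPM in TN1 to 420 CPM in TN2, on both sides of HC (214 CPM). Igf1 also lay on both sides of HC, at 5.45, 35.4 and 12.8 CPM in TN1, TN2 and TN3 against 7.28 CPM. Its log2 difference was 1.25 ± 0.89, and that of Igfbp5 was -0.15 ± 0.90. Igfbp4 lay on both sides as well (17.3, 70.8 and 33.1 against 26.4 CPM), with a log2 difference of 0.59 ± 0.66. The log2 differences were 1.18 ± 0.33 for Igfbp2, 1.13 ± 0.30 for Igfbp6, 1.08 ± 0.42 for Igfbp7 and 0.96 ± 0.49 for Igf2, none past the adjusted threshold. Igf1r was too scarce to test here. Of the 9763 genes tested 0% were called by edgeR, with 298 at an unadjusted p under 0.05 and 4 called by DESeq2. Lying above HC in all 3 TN areas, as 5 of 8 members did, was true of 20.8% of genes. Without TN1, edgeR called Igf1, Igf2, Igfbp2, Igfbp6 and Igfbp7 (adjusted p 0.00240 to 0.0219), when 2.52% of genes were called higher.

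HC lay mostly in cluster 8 of this region (340 of 478 spots) and TN1, TN2 and TN3 mostly in cluster 4 (314 of 383, 137 of 182 and 221 of 282). Cluster 4 held more Igf2 than cluster 8 in all 4 areas, by 3.85, 4.60, 3.00 and 2.23 times in TN1, TN2, TN3 and HC. In all areas 7 of 9 members were higher in cluster 4, as were 12.1% of the 13051 genes tested in the ganglion. That set includes genes too scarce to test in central myelin, where 9763 passed the filter. A share over genes measurable in central myelin was not computed. Of the 7 members, Igf1 had 0, 3, 3 and 21 UMIs and Igfbp3 3, 3, 2 and 8 UMIs in cluster 8. Connective tissue markers were higher in cluster 4 too (575, 4768, 1858 and 1184 against 400, 1318, 1475 and 461 CPM), and central myelin markers lower. The median was 4940 UMIs per spot in cluster 4 and 10550 in cluster 8. The part of markers and depth in these differences was not tested. Within cluster 4, Igf2 was 79.3, 224 and 126 CPM in the TN areas and 93.8 CPM in HC, and within cluster 8 it was 20.6, 48.7 and 42.0 against 42.1 CPM, so that TN1 fell below HC in both and TN3 stood level with it in cluster 8. Igfbp2 kept all 3 TN areas above HC in cluster 4 (102, 192 and 108 against 72.4 CPM) and in cluster 8 (73.8, 60.9 and 81.6 against 40.7 CPM). Igfbp6 did so in cluster 8 (48.1, 40.6 and 51.9 against 20.02 CPM), while in cluster 4 TN1 was at 56.9 CPM beside 56.3 CPM in HC. Igfbp7 was above HC in both clusters. Connective tissue markers in central myelin summed to 528, 3556 and 1745 CPM in TN1, TN2 and TN3 and 609 CPM in HC.

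**Figure D4:**
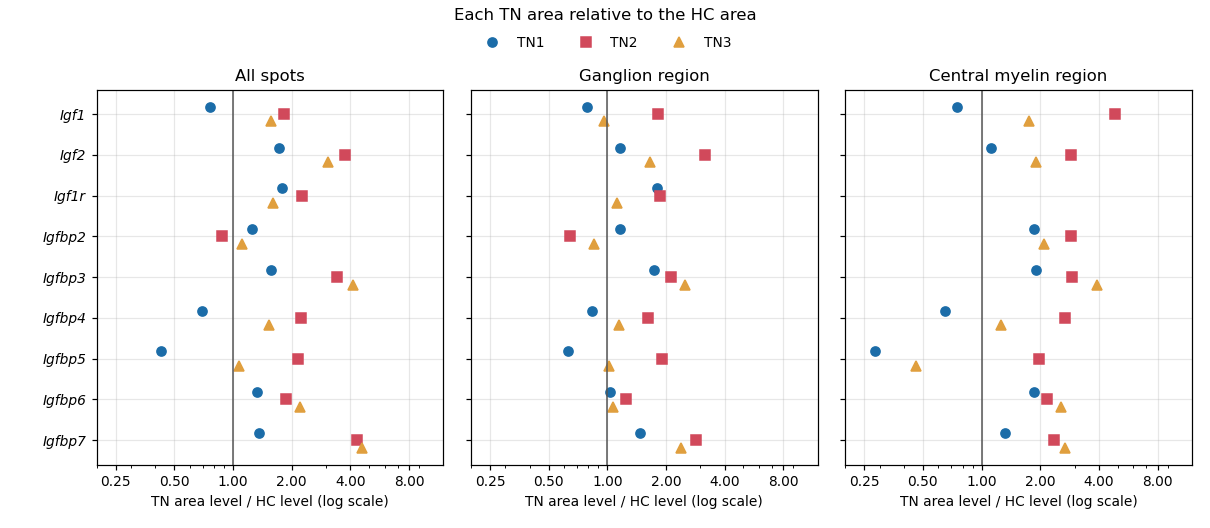
TMM-normalised level of each gene in TN1, TN2 and TN3 divided by the level in HC (x axis, log scale, 1 marks the HC level), over all spots, in the ganglion region and in the central myelin region, where Igf1r was not tested. Over all spots Igfbp7, Igfbp3 and Igf2 lie above 1 in all 3 areas, with TN2 and TN3 at 3.08 to 4.57 times HC and TN1 at 1.35 to 1.71 times.

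Whether the TN against HC difference itself differed between the ganglion and central myelin was tested as an interaction. Igfbp2 (-0.18 in the ganglion and 1.18 in central myelin) gave an interaction of -1.43 ± 0.42 on the log2 scale (adjusted p = 0.577, edgeR), and Igfbp6 one of -1.03 ± 0.28 (adjusted p = 0.539, edgeR). Neither passed. Igfbp2 passed when TN3 was left out (adjusted p = 0.000177, edgeR), where 261 genes were called, and without the filter on low counts (adjusted p = 0.000226, edgeR), where 120 were. With DESeq2 its adjusted p was 0.999955, the highest over the alternatives. Only 3 of 13282 genes passed in the fit of all areas (0.0226%), namely Gal, LOC100912228 and Stac2, named here after their values were seen. Gal and LOC100912228 were also leading genes of cluster 6, which helped to define the ganglion region. No other region reached 20 spots in every area, so TN and HC were not tested elsewhere.

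No gene of the pathway list passed in TN against HC. Over all spots, where 20 of 23 could be tested, the largest differences were those of Pappa2 (1.26 ± 0.45, 4.12, 4.83 and 3.43 CPM in the TN areas against 1.72 CPM in HC) and Foxo3 (1.26 ± 0.82, at or below 0.405 CPM), and the smallest those of Insrr (-1.17 ± 0.33) and Foxo1 (-0.68 ± 0.69, at or below 0.303 CPM). In the ganglion they were Pappa2 (2.01 ± 0.35, adjusted p = 0.470, edgeR) and Insr (0.48 ± 0.37), and Stc1 (-0.70 ± 0.66) and Insrr (-0.64 ± 0.28). Pappa2 there was 7.02, 8.68 and 7.87 CPM in TN1, TN2 and TN3 against 1.95 CPM in HC, close together in the TN areas. In central myelin they were Grb10 (0.84 ± 0.83) and Mtor (0.32 ± 0.29), and Irs2 (-0.41 ± 0.29) and Pik3r1 (-0.25 ± 0.28).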

How the data were processed

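UMI counts per gene and spot of 4 Visium capture areas were used as deposited, whole numbers that the authors made with Space Ranger (STAR as aligner) without normalization. Genome build and annotation were not given in the sources used. The number after each barcode gave the area. SCTransform (Seurat 5.3.0, sctransform 0.4.2) was run on the 16088 genes seen in 10 or more spots. Members and pathway list (31 genes found, 8 of them variable) were removed from its 3000 variable genes, and 30 principal components were split into 10 K-means clusters (50 starts). A cluster took the name of the marker list with the highest mean centred log2(CPM + 5), if it led by 0.25. UMIs were added up per region and area, where an area had 20 or more spots. The quasi-likelihood test of edgeR 4.0.16 (R 4.3.3) was used after TMM normalization and filterByExpr, with Benjamini-Hochberg adjustment over all genes at 0.05. It assumes that HC varies like the TN areas. Standard errors were derived from the F statistic. Spots were not taken as replicates. For shares, spots were thinned to 2000 UMIs, which left 1578, 1240, 1801 and 2004 spots in TN1, TN2, TN3 and HC. The text names all members, pathway genes past the threshold (otherwise the 2 largest and 2 smallest differences) and the 3 most alike genes with a mean of at least 10 CPM. Members and lists were chosen with earlier results of these data known. Tests were checked on simulated counts. Alternatives were DESeq2 1.42.0 or its size factors, no filter, other clusterings, and areas, regions, shallow spots or the mitochondrial, ribosomal and hemoglobin genes left out.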

Additional observations from a re-analysis of the deposited data

How the results depend on the processing

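The number of genes called in TN against HC was 0 with edgeR in all 3 comparisons, 144, 132 and 4 with DESeq2 (all spots, ganglion and central myelin), and 0 to 2171, 0 to 850 and 0 to 317 when a TN area was left out, the highest without TN1. Without the filter it was 3 in the ganglion and 1 in central myelin, and in the ganglion it was 5 with log-normalised counts and 5 with cluster 1 alone (a setting added once the data had been seen). The interaction count of 3 became 120 without the filter, 7 with log-normalised counts, 0 with cluster 1 alone, and 3 to 261 with an area left out, the highest without TN3. The count of ganglion against central myelin (6459) stayed within 1.5 times, at 5130 to 6126 with an area left out.

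Over 37 differences of members, 375 of 424 recomputed values kept their direction and their side of the threshold, 28 changed direction, 18 passed only under the alternative and 3 no longer passed. Of the interactions, only those of Igfbp2 and Igfbp6 were among the 37. No difference that passed edgeR's threshold changed direction. With log-normalised counts before clustering, the cluster led by Csrp3, Gal and Vgf was unnamed and so lay outside the ganglion region. That region then held 59 TN2 spots in place of 414. The TN against HC differences became -0.00046 for Igf1, 0.042 for Igfbp2, -0.022 for Igfbp4, -0.032 for Igfbp5 and -0.10 for Igfbp6 in the ganglion. In central myelin they became -0.48 for Igf1, -0.21 for Igf2 and -0.34 for Igfbp4. With cluster 1 alone the TN against HC differences in the ganglion were 0.14 for Igfbp2, -0.061 for Igfbp4, -0.015 for Igfbp5 and -0.19 for Igfbp6. Igfbp5 in the ganglion against central myelin was then -0.075. Without connective tissue and cluster 3, likewise added later, Igfbp5 over all spots was -0.24. With an area left out, TN against HC ran from -0.011 to 0.26 for Igfbp2 and from -0.41 to 0.69 for Igfbp5 over all spots. In the ganglion it ran from -0.18 to 0.49 for Igf1, from -0.42 to 0.024 for Igfbp2 and from -0.27 to 0.55 for Igfbp5, and in central myelin from -0.084 to 0.99 for Igfbp4 and from -1.42 to 0.29 for Igfbp5. Ganglion against central myelin ran from -0.18 to 0.47 for Igf1, from -0.26 to 0.58 for Igf1r, from -0.28 to 0.43 for Igfbp2 and from -0.0020 to 0.35 for Igfbp5. The cause of these changes was not tested. No paired analysis was possible because the 2 animals pooled in HC are not separated by the barcodes and its label carries no replicate number; the area block in the comparison of regions joins sums of the same area. TN against HC in other regions was not run, since no other region had 20 spots in every area. Depth limits Igf1r most.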
